A study of Mus musculus with 22 samples.

Results

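The interferon-inducible GTPases of the mouse fall into the IRG family of immunity-related GTPases and the GBP family of guanylate-binding proteins, and the RNA of 10 of them was followed through adipocyte differentiation in cells with wild-type or mutant DNMT3A. The 7 IRG genes were Ifi47, Igtp, Irgm1, Irgm2, Iigp1, Tgtp1 and Tgtp2, and the 3 GBP genes were Gbp2, Gbp3 and Gbp7, out of 30170 genes in the count table. The group was chosen by 1 measured value, the high level of Ifi47 in undifferentiated W330R cells, and filled up with its gene families. Differences of Ifi47 between genotypes are therefore described below without a test, as is every gene of the group in undifferentiated cells. The change of Ifi47 from day 2 to day 6 within a genotype was tested. The cells were C3H 10T1/2, a mouse mesenchymal line that becomes adipocytes on hormonal induction. They expressed DNMT3A1 as wild type (WT), with the PWWP-domain substitution W330R, or with W330R together with R181E (W330R-R181E). WT and W330R cells were sequenced undifferentiated and on days 2, 4 and 6 of differentiation, and W330R-R181E cells on days 2, 4 and 6, with 2 libraries in each of the 11 conditions. Every differentiated culture, WT included, received IBMX, dexamethasone, insulin and troglitazone for the first 2 days and insulin afterwards. R181E is the spelling of the sample labels, while the columns that hold this genotype are headed R181A. The labels do not say whether replicates are separate cultures or cell lines, so the p-values below measure only the spread between these libraries, which may be technical.

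IRG and GBP proteins bind and hydrolyse GTP and belong to the cell-autonomous defence that interferons switch on, above all interferon-gamma. Effector IRGs (Iigp1, Tgtp1, Tgtp2 and Ifi47) load onto the vacuole around parasites such as Toxoplasma and break it, whereas Irgm1, Irgm2 and Igtp sit on the cell's own membranes and hold the effectors inactive there. GBPs assemble on the same vacuoles and on cytosolic bacteria. Transcription is driven through interferon-gamma activated sites (GAS) and through interferon-stimulated response elements (ISREs), the latter bound by factors such as IRF9 and IRF1. Mesenchymal and fat-lineage cells carry interferon receptors and can make this response without any immune cell present.

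The stretches upstream of the members are shown because the ISRE core recurred in them at similar distances from the start. RefSeq promoter windows (build GRCm38.p6, 250 bases before to 50 bases after each start) were given for 9 of the 10 genes, with a second window for Gbp3; Iigp1 was left without one. The ISRE core searched was a pair of GAAA with any 2 bases between, or TTTC in the same arrangement for the other strand, and the GAS core was TTCNNNGAA, which reads the same on both strands. Each line gives the 100 bases before the start, 5′ to 3′ on the gene's own strand, with the ISRE cores in capitals.
Ifi47, chr11:49076487-49076586, plus strand: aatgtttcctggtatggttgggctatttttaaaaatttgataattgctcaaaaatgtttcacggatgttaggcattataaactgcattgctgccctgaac
Igtp, chr11:58199456-58199555, plus strand: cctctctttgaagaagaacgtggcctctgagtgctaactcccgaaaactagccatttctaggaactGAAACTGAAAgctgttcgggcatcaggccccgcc
Irgm2, chr11:58214877-58214976, plus strand: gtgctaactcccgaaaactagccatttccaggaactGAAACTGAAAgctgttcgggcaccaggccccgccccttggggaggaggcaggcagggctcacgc
Irgm1, chr11:48871421-48871520, minus strand: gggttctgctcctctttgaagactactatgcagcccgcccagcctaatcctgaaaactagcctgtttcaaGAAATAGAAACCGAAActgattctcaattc
Tgtp1, chr11:48992247-48992346, minus strand: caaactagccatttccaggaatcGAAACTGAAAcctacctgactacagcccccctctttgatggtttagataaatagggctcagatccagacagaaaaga
Tgtp2, chr11:49064213-49064312, minus strand: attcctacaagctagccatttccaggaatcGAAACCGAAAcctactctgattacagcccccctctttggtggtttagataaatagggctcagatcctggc
Gbp2, chr3:142620563-142620662, plus strand: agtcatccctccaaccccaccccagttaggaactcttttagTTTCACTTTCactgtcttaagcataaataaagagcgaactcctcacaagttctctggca
Gbp3, first window, chr3:142559944-142560043, plus strand: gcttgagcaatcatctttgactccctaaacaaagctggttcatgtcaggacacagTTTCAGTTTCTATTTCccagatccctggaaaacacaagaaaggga
Gbp7, chr3:142530236-142530335, plus strand: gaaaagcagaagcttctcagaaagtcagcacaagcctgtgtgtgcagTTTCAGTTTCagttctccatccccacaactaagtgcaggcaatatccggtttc

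An ISRE core lay in 8 of the 10 windows, those of 8 of the 9 genes, whereas 3.44% of all 32851 promoter windows of the same length held it. Counted from the start, its first base lay between -77 in Tgtp1 and -30 in Irgm1. In Irgm1 and in the first window of Gbp3, 2 cores overlapped each other. The stretches around the core were nearly alike in Igtp and Irgm2, and in Tgtp1 and Tgtp2, so these windows are not independent of each other. The GAS core was in 5 of the 10 windows, against 8.30% of all windows. The windows held between 1 and 11 CpG dinucleotides, the sites that DNMT3A methylates, and the median over all windows was 7. The Ifi47 window held neither core. It lies at the most upstream of 5 annotated Ifi47 starts, which spread over 11677 bases, so the absence of these letters says nothing about the other starts or about any factor.

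The genes also share positions and sequence. Ifi47, Irgm1, Tgtp1 and Tgtp2 stand close together on chromosome 11, Igtp and Irgm2 are neighbours further along it, and the 3 GBP genes lie side by side on chromosome 3. Tgtp1 and Tgtp2 are near copies, since 81.2% of the 50-base words in Tgtp1 transcripts and 86.6% of those in Tgtp2 transcripts also occur in another gene, mostly in the other copy. The division of reads between Tgtp1 and Tgtp2 is therefore uncertain, and their summed counts are given where it matters. Igtp shares 11.8% of its words with Irgm2, whose annotated exons it overlaps on the same strand, and Gbp7 shares 12.7% of its words, mostly with the overlapping gene model Gm43802. The Ifi47 exons overlap the olfactory receptor gene Olfr56 on the same strand, at 7 counts or fewer in any library, and Gm12188 on the other strand, at 14 counts or fewer.

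The library totals ran from 8859501 to 47453908 counts. Levels are CPM, the usual counts-per-library-size scale corrected by the trimmed mean of M-values (TMM), and they do not account for gene length, so they are compared between libraries and not between genes. All 10 members were among the 14520 genes that passed the filter on low counts; Tgtp2 would not have passed in the W330R-R181E libraries alone. The libraries of differentiated cells carried adipocyte markers, with a summed level of 1523 CPM or more over 7 genes against at most 46.6 CPM in undifferentiated cells. The adipocyte sum on day 6 was lower in W330R (1523 and 1725 CPM) and W330R-R181E (1920 and 3147 CPM) than in WT (5112 and 9712 CPM). Of immune cell markers, the 7 lymphocyte genes summed to at most 1.27 CPM in any library, Nkg7 was at 0 in all 22 libraries, and the 7 measured macrophage genes, mostly Cd68 and Cd14, summed to between 9.78 and 22.3 CPM. Ptprc, the pan-leukocyte marker, did not exceed 0.81 CPM. The 4 endothelial genes summed to 10.4 to 20.8 CPM in W330R and 23.7 to 24.1 CPM in WT undifferentiated. On day 4 they summed to 5.98 to 6.15 CPM in W330R, 2.15 to 2.67 CPM in WT and 2.22 to 4.13 CPM in W330R-R181E. At day 6 the sums were 13.5 to 15.03 CPM, 3.99 to 7.03 CPM and 6.17 to 7.04 CPM in the same order. Of these 4 genes, Pecam1 and Tek were above 0 in all 22 libraries and reached 15.96 and 18.48 CPM. Cdh5, a defining marker, was at 0 in 15 of the 22 libraries and at most 0.18 CPM. Kdr was at 0 in 6 libraries and at most 0.32 CPM. The part of these marker differences in the results below was not tested. Dnmt3a RNA on days 2 to 6 was 105 to 322 CPM in WT, 87.4 to 142 CPM in W330R and 68.5 to 148 CPM in W330R-R181E. It was 316 to 347 CPM in undifferentiated cells. Dnmt3a RNA does not tell the introduced from the endogenous gene, and its part in the results below was not tested. The first replicate of W330R-R181E on day 6 stood apart from the second in the interferon-stimulated genes. The sum of 43 such genes outside the group was 4857 CPM in it and 999 CPM in its partner, so results that include it are given with and without it.

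In undifferentiated cells, Ifi47 was the member with the largest ratio between the genotypes, which is the pattern it was picked for. Its counts were 70 and 48 in the W330R libraries and 2 and 3 in the WT libraries. In CPM these were 5.72 and 5.55 against 0.18 and 0.13, a ratio of 38.2 from the summed counts (exact 95% interval 15.9 to 120, counting error only). For the other 9 genes the same ratio ran from 0.49 for Gbp7 to 1.65 for Iigp1. Every W330R library lay above every WT library for 2 of the 10 members, Ifi47 and Irgm1, and for 30.1% of all tested genes. Irgm1 had 71.4 and 67.3 CPM in W330R and 64.8 and 60.9 CPM in WT. Gbp7 had 1.31 and 0.93 CPM in W330R and 2.73 and 2.14 CPM in WT, and Gbp3 had 1.06 and 0.69 CPM against 1.32 and 1.51 CPM. The W330R and WT libraries of Igtp, Irgm2, Iigp1, Tgtp1, Tgtp2 and Gbp2 overlapped.

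**Figure D1:**
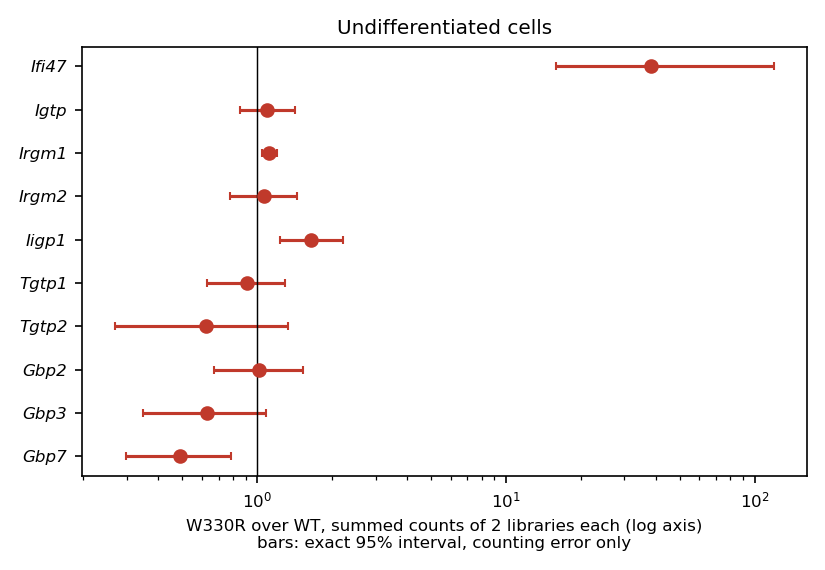
Ratio of W330R to WT in undifferentiated cells for each of the 10 members (horizontal log axis), from the summed counts of 2 libraries per genotype scaled to library size, with exact 95% intervals that cover counting error only. Ifi47 lies at 38.2, and the other members lie between 0.49 and 1.65.

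During differentiation the whole group was higher in W330R than in WT cells. Of the 9 members tested (Ifi47 left out), 9 were called higher in W330R averaged over days 2, 4 and 6, with a median log2 fold change of 3.04 against 0.02 over all tested genes (edgeR quasi-likelihood test, Benjamini-Hochberg adjusted p under 0.05). In the same comparison 14.3% of all tested genes were called higher. The size of the change differed between the replicate numbers, a split made after seeing the data. The median was 4.07 with libraries of number 1 alone (3 members called) and 1.42 with libraries of number 2 alone (7 called). These fits called 1116 of 13246 and 2820 of 13535 tested genes higher. Bulk RNA cannot tell a larger share of responding cells from more RNA per cell. Every W330R library of a day lay above every WT library of that day for all 9 members other than Ifi47 on day 2, for all 9 again on day 4 and for 8 at day 6, where this held for 22.3%, 28.0% and 30.9% of tested genes. Tgtp1 on day 6 was the exception. Over days 2 to 6 together, all 6 W330R libraries lay above all 6 WT libraries for Irgm2, Iigp1, Tgtp2 and Gbp7, which are 4 of the 9 members, and for 2.73% of tested genes. Ifi47 showed the same separation, as a description.

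**Figure D2:**
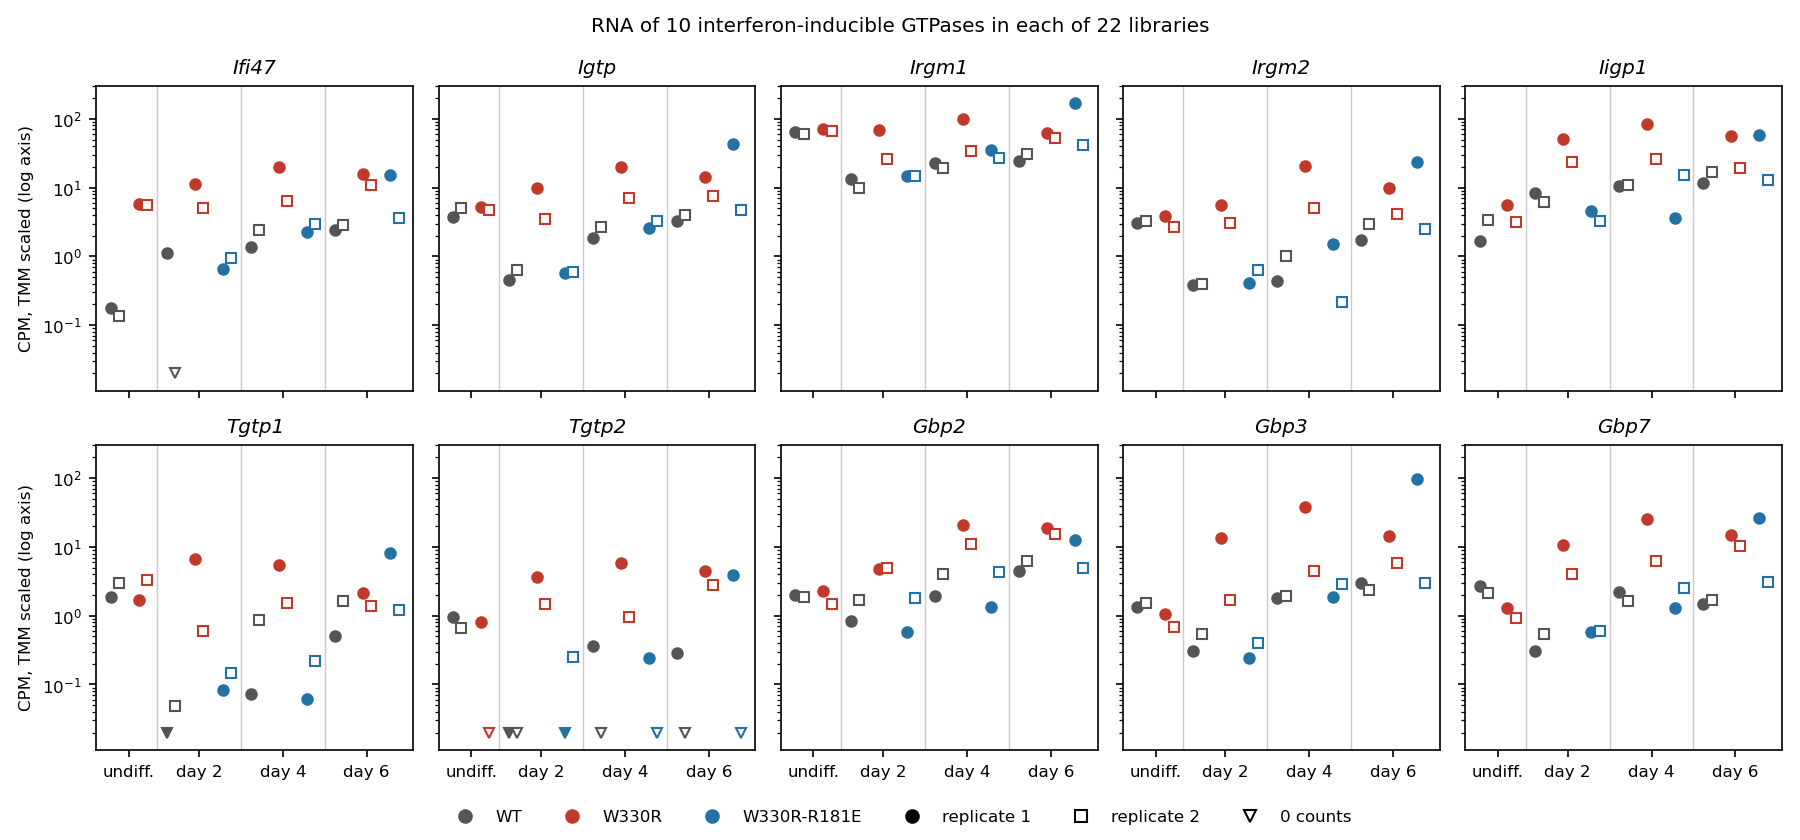
Level of each member (CPM, log axis) in each of the 22 libraries, by stage, with WT in grey, W330R in red and W330R-R181E in blue, replicate 1 filled, replicate 2 open, and triangles at the bottom for libraries with 0 counts. On days 2 and 4 the W330R points lie above the WT points in all 10 panels, and on day 6 the first W330R-R181E replicate lies far above the second, as for Gbp3 at 98.2 and 3.03 CPM.

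The regulatory IRGs, which guard the cell's own membranes, showed the following levels. Igtp had 0.45 and 0.64 CPM on day 2, 1.88 and 2.69 CPM on day 4 and 3.29 and 3.99 CPM on day 6 in WT. In W330R it had 9.73 and 3.54, then 19.98 and 7.11, then 14.2 and 7.51 CPM. The genotypes did not overlap on any day, and Igtp was higher in W330R by a log2 fold change of 2.56 ± 0.46 (SE; edgeR adjusted p = 0.00117). Irgm2, the second of this class, had 0.38 and 0.39, 0.43 and 1.02, and 1.70 and 2.92 CPM in WT on days 2, 4 and 6. In W330R it had 5.61 and 3.05, 20.5 and 5.00, and 9.86 and 4.07 CPM, so its lowest W330R library was above its highest WT library (log2 fold change 3.04 ± 0.59, edgeR adjusted p = 0.00179). Irgm1, the member needed to hold the effectors and to keep autophagy and mitochondria in order, had the smallest change of the 9, at 1.57 ± 0.33 (edgeR adjusted p = 0.00328). It ranged from 9.99 to 31.3 CPM with a median of 21.1 in the 6 WT libraries and from 26.0 to 101 CPM with a median of 56.7 in the 6 W330R libraries. The W330R libraries of days 2 to 6 thus spanned the undifferentiated levels of Irgm1, whereas all 6 WT libraries lay below them. In WT the mean of Irgm1 was 62.8 CPM undifferentiated and 11.7 CPM on day 2, and in W330R it was 69.3 and 47.3 CPM. The step from undifferentiated cells to day 2 was not tested, because the undifferentiated columns are named by another pattern that gives no day, and the stage cannot be told apart from that difference.

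Of the effector IRGs, Ifi47 had 1.13 and 0, 1.37 and 2.42, and 2.44 and 2.87 CPM in WT on days 2, 4 and 6. In W330R it had 11.2 and 5.06, 20.0 and 6.48, and 15.8 and 10.8 CPM, and no W330R library came down to the WT range at any stage. Its W330R levels on days 2 to 6 reached from just under to well above the undifferentiated 5.55 and 5.72 CPM. Iigp1, which attacks the membrane of the pathogen's vacuole, had 8.31 and 6.15, 10.7 and 10.98, and 11.7 and 17.01 CPM in WT. In W330R it had 51.4 and 23.2, 84.9 and 25.7, and 56.5 and 19.6 CPM, which did not overlap with WT (log2 fold change 2.04 ± 0.46, edgeR adjusted p = 0.00452). The undifferentiated means of Iigp1 were 2.51 CPM in WT and 4.38 CPM in W330R, below its day 2 means of 7.23 and 37.3 CPM.

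Tgtp1 had 0, 1, 1, 16, 9 and 34 counts in the 6 WT libraries of days 2 to 6, and 127, 16, 87, 41, 109 and 34 counts in the W330R libraries. On day 6 the second WT replicate (1.65 CPM) lay above the second W330R replicate (1.396 CPM). Averaged over the days Tgtp1 was higher in W330R (log2 fold change 3.40 ± 0.80, edgeR adjusted p = 0.0060). The size moved with single libraries, to 2.54 without the first W330R replicate of day 2 and to 4.24 and 4.29 without the second WT replicate of day 2 or 4. Its near copy Tgtp2 had counts in only 2 of the 6 WT libraries, 5 in each, and 26 to 229 counts in every W330R library, and was called with an edgeR adjusted p of 0.0044. Its fitted size is not given, since it rests on the WT libraries at 0. With both copies summed the log2 fold change was 4.32 ± 0.70 (edgeR adjusted p = 0.000604).

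The 3 GBPs, which coat vacuoles and bacteria, changed with the IRGs. Gbp7 had the lowest p of the group (edgeR adjusted p = 0.000327), with a log2 fold change of 3.36 ± 0.50. Its levels in WT were 0.30 and 0.54, 2.24 and 1.61, and 1.47 and 1.70 CPM on days 2, 4 and 6. In W330R they were 10.9 and 4.03, 25.4 and 6.30, and 14.7 and 10.5 CPM. The W330R levels of Gbp7 thus lay above WT from day 2 on. In undifferentiated cells they lay below WT on few counts, 16 and 8 against 31 and 48, which was not tested. Gbp3 had 0.30 and 0.54, 1.80 and 1.94, and 3.01 and 2.38 CPM in WT and 13.4 and 1.67, 38.7 and 4.48, and 14.2 and 5.75 CPM in W330R. The genotypes did not overlap within a day, although the W330R replicates lay several-fold apart (log2 fold change 3.16 ± 0.76, edgeR adjusted p = 0.00688). Without the first W330R replicate of day 2 or 4 the Gbp3 change was 2.44 or 2.43. Gbp2 had the closest W330R replicates on day 2, at 4.70 and 4.87 CPM, against 0.83 and 1.67 CPM in WT. By day 6 it was at 19.0 and 15.4 CPM in W330R and at 4.48 and 6.27 CPM in WT (log2 fold change over the days 1.99 ± 0.36, edgeR adjusted p = 0.00113).

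Single days gave fewer calls with 2 libraries a group. W330R against WT called 2 of 9 members higher on day 2, 3 on day 4 and 1 on day 6, where 1.88%, 2.73% and 2.31% of all tested genes were called higher. Fits that left out a library of the day, with 1 library left in a group, kept few or none of these calls. The calls over all tested genes also fell in most of these fits. DESeq2 called 9 members on day 2 and 7 on day 4, where it called 609 and 745 of 13112 tested genes higher. The difference of the W330R effect between day 6 and day 2 was called for 0 of 9 members (edgeR; 1 had an unadjusted p under 0.05), with 0.0895% of all genes called. The median of that difference was -1.87 on the log2 scale, and the design gave no call on whether the effect narrowed.

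In the double mutant, the group lay below W330R on days 2 and 4, and on day 6 its 2 libraries diverged. Averaged over days 2 to 6, 7 of 9 members were called lower in W330R-R181E than in W330R and 2 were not called, with a median log2 fold change of -1.96, while 9.36% of all tested genes were called lower and 7.87% higher. The members not called were Irgm1 (-0.63 ± 0.33, edgeR adjusted p = 0.212) and Gbp3 (-1.76 ± 0.74, edgeR adjusted p = 0.124). Without the first W330R-R181E replicate of day 6, 9 of 9 were called lower and the median was -2.79. The 7 calls fell to 3 without the first W330R replicate of day 2, 4 or 6 or without either W330R-R181E replicate of day 2, and to 4 without either W330R-R181E replicate of day 4. Iigp1, Gbp2 and Gbp7 were called in all 12 fits that left out a library. On single days 1 of 9 was called lower on day 2, 0 at day 4 and 0 at day 6 (edgeR; 9, 8 and 0 had an unadjusted p under 0.05), against 1.70%, 1.35% and 0.937% of all tested genes. Every W330R library lay above every W330R-R181E library of the same day for all 9 members other than Ifi47 at day 2, for 8 at day 4 and for 1 at day 6, where this held for 19.0%, 23.7% and 24.0% of tested genes. Over days 2 to 6 together it held for 0 of the 9 and for 2.16% of tested genes. The exception on day 4 was Irgm1, and on day 6 Gbp2 alone kept the separation.

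**Figure D3:**
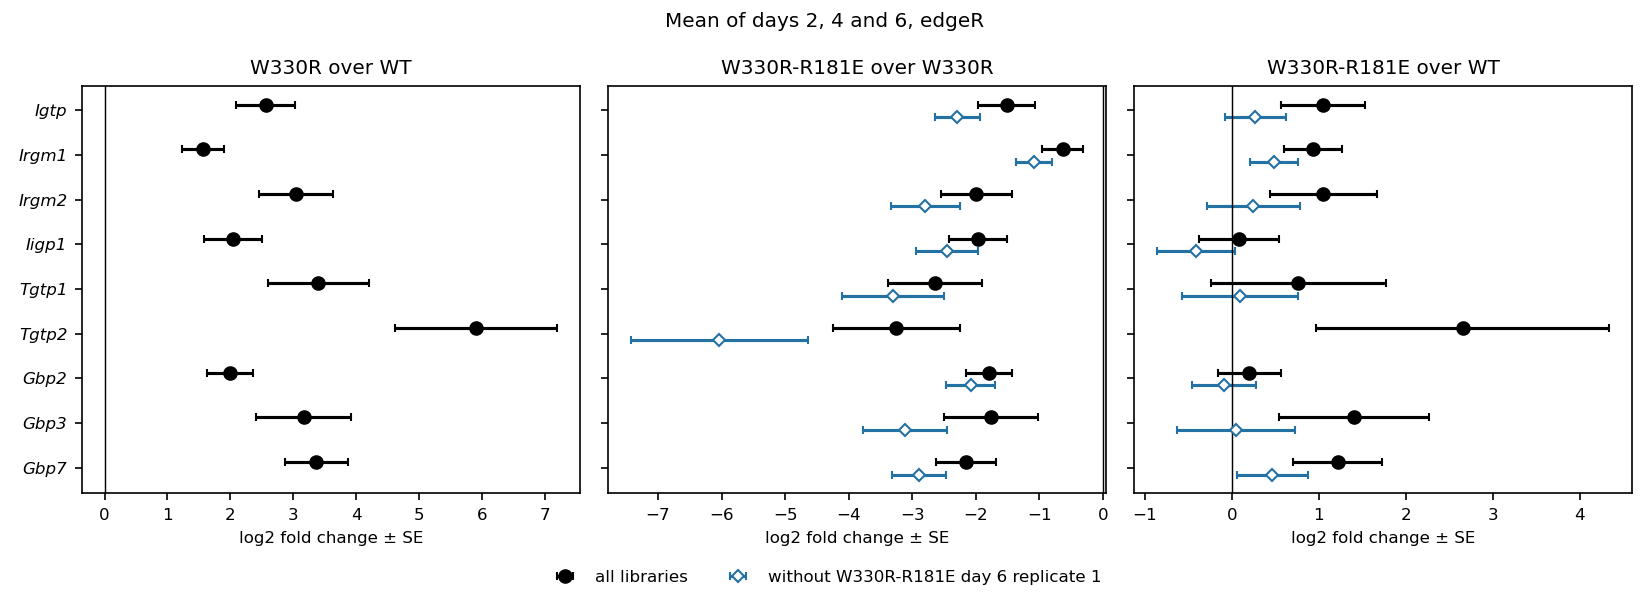
Log2 fold change ± SE of the 9 tested members in 3 comparisons averaged over days 2, 4 and 6 (edgeR), with all 22 libraries in black and without the first W330R-R181E replicate of day 6 in blue; Tgtp2 has no blue point in the right panel, because counts of 0 leave its error unbounded. The left panel lies above 0 throughout, the values of the middle one are under 0 throughout, and in the right panel the blue points lie between -0.41 and 0.49.

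The levels of single genes show the divergence. Gbp3 in W330R-R181E had 0.25 and 0.40 CPM on day 2, 1.88 and 2.87 CPM on day 4, and 98.2 and 3.03 CPM on day 6. Igtp had 0.57 and 0.59, 2.61 and 3.26, and 42.5 and 4.77 CPM. In the 5 libraries other than the first of day 6, Gbp3 was between 0.25 and 3.03 CPM and Igtp between 0.57 and 4.77 CPM. Igtp was lower than in W330R by -1.51 ± 0.45 (edgeR adjusted p = 0.0329), or -2.29 without the first library of day 6. Gbp7 had 0.57 and 0.59, 1.28 and 2.52, and 26.3 and 3.14 CPM, and was lower than in W330R by a log2 fold change of -2.15 ± 0.47 (edgeR adjusted p = 0.00689), or -2.90 without that library. Gbp2 had 0.57 and 1.83, 1.34 and 4.26, and 12.7 and 4.87 CPM (-1.79 ± 0.36, edgeR adjusted p = 0.00359). For Gbp2, the first day 6 library was thus below the W330R libraries of that day, at 19.0 and 15.4 CPM.

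Among the IRGs, Ifi47 in W330R-R181E had 0.66 and 0.94, 2.25 and 2.91, and 15.3 and 3.57 CPM on days 2, 4 and 6. In 5 of the 6 libraries it was thus below the lowest W330R library (5.06 CPM), and in the first of day 6 it was inside the W330R range. Iigp1 had 4.51 and 3.32, 3.59 and 15.4, and 57.7 and 12.9 CPM, the lowest 3 of these below the lowest WT library (6.15 CPM), and it was lower than in W330R by -1.96 ± 0.46 (edgeR adjusted p = 0.00986). Irgm2 had 0.41 and 0.64, 1.52 and 0.22, and 23.6 and 2.49 CPM (-1.99 ± 0.56, edgeR adjusted p = 0.0257), and the change was -2.64 without the first library of day 4 and -2.79 without the first of day 6. Irgm1 had 14.5 and 14.5, 35.1 and 27.2, and 170 and 41.8 CPM, and its day 4 libraries overlapped with W330R. Tgtp1 and Tgtp2, summed, were lower than in W330R by -2.97 ± 0.62 (edgeR adjusted p = 0.00471).

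Against WT, 0 of 9 members were called in W330R-R181E averaged over days 2 to 6 in either direction (edgeR; 3 had an unadjusted p under 0.05, and DESeq2 called 1), while 9.57% of all tested genes were called. Every W330R-R181E library of a day lay above every WT library for 4 of the 9 members on day 2 (Irgm1, Irgm2, Tgtp1 and Gbp7), for Irgm1 on day 4 and for 4 at day 6 (Igtp, Irgm1, Gbp3 and Gbp7), where this held for 15.02%, 20.4% and 20.4% of tested genes. The day 2 separations rested on few counts for Tgtp1 (1 and 3 against 0 and 1 in WT), Irgm2 (5 and 13 against 5 and 8) and Gbp7 (7 and 12 against 4 and 11). Over the 3 days together the separation held for 0 members and 0.730% of tested genes. The median log2 fold change was 1.05 with all libraries and 0.09 without the first replicate of day 6. On single days 0 of 9 members were called on day 2, at day 4 and at day 6 (edgeR; 0, 0 and 6 had an unadjusted p under 0.05), and 0%, 0% and 0.875% of all genes were called. The largest SEs were those of Tgtp2 and Tgtp1, at 1.69 and 1.01, and a missed threshold does not show that the genotypes were alike. Without the second replicate of day 6 instead, 3 members were called. The W330R against WT and W330R-R181E against W330R comparisons share the W330R libraries, so their values stand side by side and are not independent of each other.

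The course from day 2 to day 6 was tested within each genotype for all 10 members, Ifi47 included, since it does not set W330R against WT. In WT, 2 of 10 rose (14.8% of all tested genes rose): Igtp by a log2 fold change of 2.70 ± 0.87 (edgeR adjusted p = 0.0342) and Gbp2 by 2.07 ± 0.64 (edgeR adjusted p = 0.0287). Leaving out any of the 4 WT libraries left 0 or 1 call, and neither Igtp nor Gbp2 was called in these fits. The WT median over the 10 was 2.47, with 6 members, Ifi47 among them, at an unadjusted p under 0.05. Gbp2 moved to 2.69 without the second WT replicate of day 2. In W330R, 1 of 10 rose (13.6% of genes), again Gbp2, by 1.84 ± 0.60 (edgeR adjusted p = 0.0377), where the median over the 10 was 0.60, and it was not called in the 4 fits that left out a library of these days. In W330R-R181E, 9 of 10 rose (12.9% of genes), led by Gbp3 at 7.23 ± 1.60 (edgeR adjusted p = 0.00598) and Igtp at 5.34 ± 0.92 (edgeR adjusted p = 0.00141), and Tgtp2 was not called. Without the first replicate of day 6, Igtp was at 3.01, Gbp3 was at 3.16, and the median over the 10 was 2.16 in place of 4.21. That fit, and the fit without the second replicate of day 2, had 1 library left in a group. In both, fewer members and fewer of all tested genes were called than with all libraries. Differences in course between genotypes other than W330R against WT were not tested.

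The members moved together between replicates of 1 condition as well. In W330R, the first replicate was higher than the second for 9 of 10 members at day 2 and for 10 of 10 at days 4 and 6, with median ratios of 2.54, 3.48 and 1.56, while this held for 47.5%, 48.5% and 55.2% of all tested genes. In undifferentiated W330R cells it was higher for 9 of 10 with a median ratio of 1.41, where 48.5% of all tested genes were. On day 6 of W330R-R181E it was higher for 10 of 10 with a median ratio of 6.81, where 51.7% of all tested genes were. In WT on days 2 to 6, and in W330R-R181E on days 2 and 4, it was higher for only 2 or 3 of the 10, where 48.2% to 50.2% of all tested genes were. In undifferentiated WT cells it was higher for 5 of the 10, where 41.8% of all tested genes were. On days 2 to 6 the sum of 43 other interferon-stimulated genes was higher in the same replicate as most members. The summed IRG level went the other way in WT on days 2 and 4 and in W330R-R181E on day 2. In WT on day 2 the IRG sum was 23.6 and 17.2 CPM, and the sum of the 43 was 480 and 732 CPM. The sum of the 43 was 1748 and 915 CPM in W330R on day 2, 2764 and 1058 CPM on day 4 and 1697 and 1187 CPM on day 6. It was 480 to 1110 CPM in the 6 WT libraries of these days. In undifferentiated W330R cells it was 809 and 826 CPM. What set the replicates apart was not tested.

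**Figure D4:**
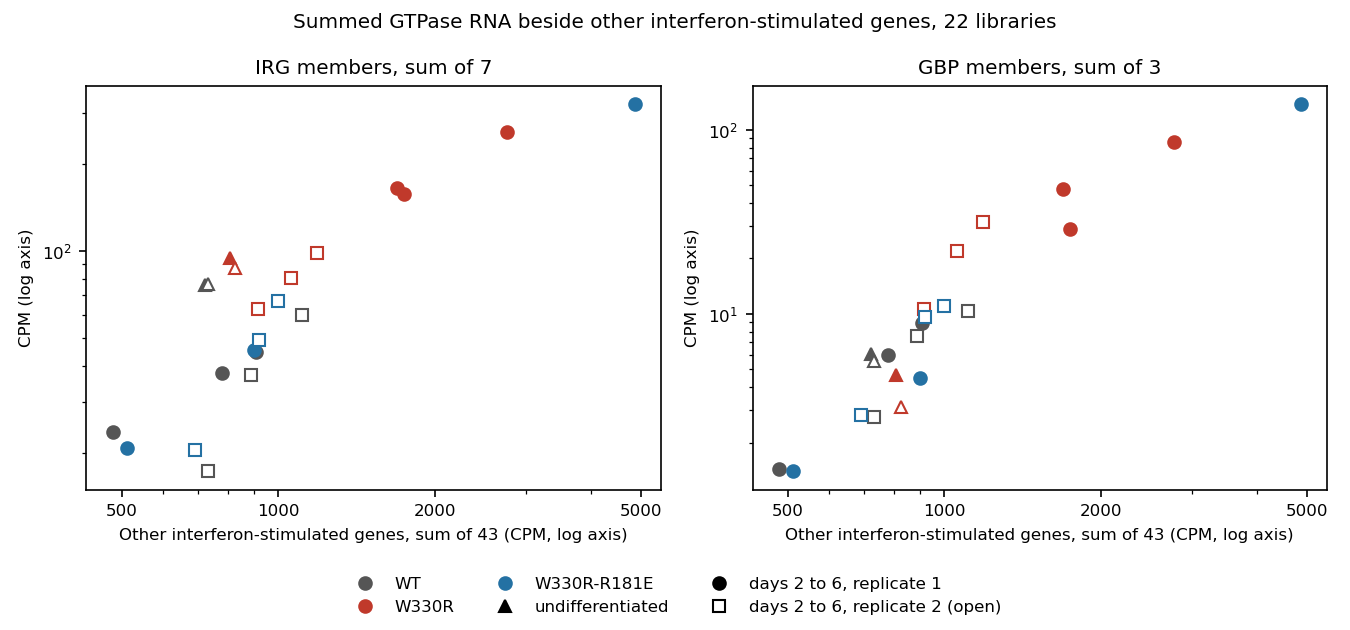
Summed level of the 7 IRG members (left) and the 3 GBP members (right) against the summed level of 43 other interferon-stimulated genes (CPM, log axes) in 22 libraries, coloured by genotype, with triangles for undifferentiated cells and, for days 2 to 6, circles for replicate 1 and open squares for replicate 2. The first W330R-R181E replicate of day 6 is the highest point in each panel, at 321 and 137 CPM, and the undifferentiated libraries lie at 76.3 to 94.5 CPM on the left but at 3.12 to 6.08 CPM on the right.

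The rest of the interferon pathway was read from lists of genes outside the group. No interferon gene that is typical of this response was measurable: Ifng had 0 counts in all 22 libraries, which allows up to 3 counts in a library, and Ifnb1 had 1 count in all libraries together. Of the 21 ligands listed, Ifne (at most 12 counts) and Ifnz (at most 114 counts) exceeded 3 counts in a library, and 0 of the 2 were called in any averaged genotype comparison (edgeR; at an unadjusted p under 0.05, Ifne in W330R-R181E against W330R only).

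Of 8 receptors and kinases tested, 1 was called higher and 2 lower in W330R than in WT. Of all tested genes, 14.3% were called higher and 14.8% lower. Ifngr1, the ligand-binding chain of the interferon-gamma receptor, was lower (-0.97 ± 0.17, edgeR adjusted p = 0.00106), Ifngr2, its signalling partner, was higher (0.50 ± 0.12, edgeR adjusted p = 0.00824), and the kinase Jak1 was lower (-0.36 ± 0.11, edgeR adjusted p = 0.0311). In W330R-R181E against W330R, 3 of the 8 were called lower, where 9.36% of all tested genes were. They were Ifngr2 (-0.51 ± 0.12, edgeR adjusted p = 0.0129), Ifnar2, a chain of the type I receptor (-0.38 ± 0.09, edgeR adjusted p = 0.00828), and Il10rb, a chain shared with the type III receptor (-0.51 ± 0.16, edgeR adjusted p = 0.0387). Ifngr1 and Il10rb were the 2 called in W330R-R181E against WT, lower by -0.59 ± 0.17 (edgeR adjusted p = 0.0455) and -0.59 ± 0.16 (edgeR adjusted p = 0.0339), where 5.12% of all tested genes were lower. Ifnar1 and the kinase Jak2 were not called in these comparisons, with fold changes between -0.26 and 0.32 on the log2 scale. Tyk2 had a median of 0 CPM in each genotype and could not be compared.

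Of 9 transcription factors tested, 4 were called higher in W330R than in WT, where 14.3% of all tested genes were. Irf1, which binds ISREs of IRG and GBP genes, ranged from 14.5 to 36.4 CPM in WT and from 31.2 to 59.6 CPM in W330R on days 2 to 6 (0.85 ± 0.13, edgeR adjusted p = 0.000341). Stat2 (1.32 ± 0.33, edgeR adjusted p = 0.00795) and Irf9 (1.42 ± 0.38, edgeR adjusted p = 0.0120), which act through ISREs, were higher too, and the fourth was Nlrc5, the class I transactivator (1.91 ± 0.66, edgeR adjusted p = 0.0440), named after its value was seen. In W330R-R181E against W330R only Irf1 of the 9 was called, lower by -0.55 ± 0.13 (edgeR adjusted p = 0.00913), where 9.36% of all tested genes were called lower. Among the feedback inhibitors, Usp18, which cuts ISG15 from proteins and blocks the type I receptor, was far higher in W330R (5.35 ± 0.96, edgeR adjusted p = 0.00113) and lower again in the double mutant (-2.70 ± 0.83, edgeR adjusted p = 0.0393). It had 0.10 to 1.37 CPM in WT, 7.47 to 71.7 CPM in W330R and, in W330R-R181E, a median of 0.90 CPM with 114 CPM in the first replicate of day 6. Trim21, an antibody receptor of the cytosol (1.25 ± 0.29, edgeR adjusted p = 0.0059), was the other of 2 inhibitors among 9 called higher in W330R, where 14.3% of all tested genes were, and Ptpn6, a phosphatase, was higher in W330R-R181E than in W330R (1.52 ± 0.27, edgeR adjusted p = 0.00191); both were named after their values were seen. Socs1, an inhibitor of JAK kinases, was not called (0.86 ± 0.60, edgeR adjusted p = 0.311). In W330R-R181E against W330R, 1 of the 9 inhibitors was called higher and 1 lower, where 7.87% and 9.36% of all tested genes were.

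Other interferon-stimulated genes went the way of the members. Of 41 tested, 27 were called higher and 0 lower in W330R than in WT (14.3% and 14.8% of all tested genes), with a median log2 fold change of 1.71. The largest changes among those with sufficient level were in Oas2 (7.76 ± 1.399, edgeR adjusted p = 0.00116), Oas1a and Oasl2, sensors and relatives of double-stranded RNA sensing, Trim30a and Ifit1. Oas2 stayed at or below 0.15 CPM in the 6 WT libraries and reached 0.80 to 98.9 CPM in W330R. Of all tested genes, 9.36% were called lower in W330R-R181E than in W330R. In W330R-R181E against W330R, 14 of 41 were called lower, and 26 of 41 without the first replicate of day 6. Against WT, 2 of 41 were higher in the double mutant (4.46% of all tested genes were), Bst2 (2.29 ± 0.61, edgeR adjusted p = 0.0332) and Tap1 (0.76 ± 0.22, edgeR adjusted p = 0.0436), and 0 without that replicate. Of 16 other IRG and GBP genes tested, 9 were higher in W330R than in WT (median 1.37), where 14.3% of all tested genes were. In W330R-R181E against W330R, 7 of the 16 were lower, among them Gbp9 (-3.76 ± 0.67, edgeR adjusted p = 0.00185), against 9.36% of all tested genes. Gbp9 had 0 to 1.70 CPM in WT, 4.22 to 11.7 CPM in W330R and 0 to 4.09 CPM in W330R-R181E. The ISRE core was in the promoter window of 14 of 34 other interferon-stimulated genes and of 5 of 8 other GTPase genes with a window. Of 10 genes of the autophagy conjugation machinery that places IRG and GBP proteins on vacuoles, 3 were lower in W330R than in WT and 0 higher, where 14.8% of all tested genes were lower. They were Atg12 (-1.07 ± 0.28, edgeR adjusted p = 0.0102), Atg16l1 (-0.44 ± 0.08, edgeR adjusted p = 0.000877) and, named after its value was seen, Gabarapl2 (-0.34 ± 0.09, edgeR adjusted p = 0.00931). Gabarapl2 was higher again in W330R-R181E than in W330R (0.38 ± 0.09, edgeR adjusted p = 0.00853), 1 of the 10, where 7.87% of all tested genes were. In the double mutant against WT 1 of the 10, Atg16l1, was lower (-0.31 ± 0.08, edgeR adjusted p = 0.0221), where 5.12% of all tested genes were.

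The pattern of the group over the 11 condition means was closest to that of H2-T22, a class I histocompatibility gene (Pearson r = 0.993), Ddx58, which encodes the RNA sensor RIG-I (r = 0.977), Parp14 (r = 0.972), Oas1c (r = 0.966) and Parp12 (r = 0.963). The genes closest to Ifi47 alone were others: Gm14403 (r = 0.955), Cish, a STAT5-induced cytokine signalling inhibitor (r = 0.929), Rsl1 (r = 0.927), Fbxo10 (r = 0.920) and Tmub1 (r = 0.917). All of these were picked for the highest r over 11 means that share libraries with the members, and are a description only. Within the group, Ifi47 correlated with the other members at r between 0.567 for Tgtp1 and 0.802 for Gbp2, whereas Gbp3 and Gbp7 reached 0.953 and Irgm2 and Tgtp1 0.951. The lowest value in the group was 0.320, between Irgm1 and Iigp1.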

How the data were processed

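Total RNA of C3H 10T1/2 cells was sequenced in 22 libraries (NEBNext Ultra II). The authors deposited whole-number counts per gene symbol, not normalized. Their processing notes name kallisto, DESeq2 1.40 and GRCm39 without saying which step each served; whether counting used strand is not given in the sources used here, so overlapping genes may share reads. Depth was 8859501 to 47453908 counts per library and limits low values; intervals cover counting error only.

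From the deposited counts, genes were kept by filterByExpr (minimum count 10, minimum total 15; 14520 genes), scaled by TMM and fitted in 1 quasi-likelihood model over all 22 libraries with 1 mean per condition (edgeR 4.0.16, R 4.3.3). The threshold for a call was 0.05 on p-values adjusted by Benjamini and Hochberg over all tested genes, and the SE was the log2 fold change divided by the square root of F. Genotypes were compared as the mean of days 2, 4 and 6 and on single days, and day 6 with day 2 within a genotype. The code was tested on simulated data. Alternatives were DESeq2 1.42.0, RLE scaling, no filter, a replicate block, only the conditions compared, Tgtp1 and Tgtp2 summed, and each library left out; leaving out day 6 and using libraries of 1 replicate number were added after seeing the data. Promoter windows came from RefSeq (GRCm38.p6) and shared 50-base words from GENCODE transcripts of GRCm38, another build than the authors' notes name.

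The members, the gene lists and the tests were chosen with earlier results of these data known. Named genes were all members, fixed pathway genes (Stat2, Irf1, Irf9, Socs1, Usp18, receptors and kinases; 1 further gene is not reported here), ligands above 3 counts in a library, up to 5 listed genes with the largest called change per comparison at a mean log2 CPM of at least 1, and the 5 genes most correlated with Ifi47 and with the members' mean.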

Additional observations from a re-analysis of the deposited data

How the results depend on the processing

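The 9 calls of W330R over WT averaged over days 2 to 6 were made in each of the 12 fits that left out a library (9 to 9) and with DESeq2, RLE scaling, no filter, the replicate block, only the conditions compared and Tgtp1 and Tgtp2 summed; with libraries of replicate number 1 alone 3 were called and with number 2 alone 7. The fits by replicate number called 1116 of 13246 and 2820 of 13535 tested genes higher. For W330R-R181E against W330R, 7 calls became 3 to 9 without a library, 3 with only the conditions compared and 1 with replicate number 1 alone. With only the conditions compared 1019 of 14317 tested genes were lower, and with replicate number 1 alone 1487 of 13246. For W330R-R181E against WT, 0 calls became 0 to 3 without a library and 1 with DESeq2, without a filter and under the replicate block. From day 2 to day 6, calls without a library were 1 to 9 in W330R-R181E (main 9; 0 with only those conditions), 0 to 1 in WT (main 2; 5 with DESeq2, 4 without a filter, 3 with Tgtp summed) and 0 to 0 in W330R (main 1). W330R against WT on single days gave, without a library, 0 to 1 on day 2, 0 to 0 on day 4 and 0 to 0 on day 6; with DESeq2 9 on day 2 and 7 on day 4; without a filter 7 and 7; with only those conditions 0 and 0; and with Tgtp summed 3 on day 2. W330R-R181E against W330R on day 2 gave 0 to 0 without a library, 8 with DESeq2, 6 without a filter and 0 with only those conditions, and on day 4 it gave 5 with DESeq2 and 5 without a filter. W330R-R181E against WT on day 6 gave 0 to 3 without a library and 4 with DESeq2 or without a filter. With only those conditions, W330R against WT on days 2 and 4 called 0 of 12874 and 0 of 13083 tested genes. W330R-R181E against W330R on day 2 called 0 of 12926, so these zeros say nothing particular about the members. In the same setting, 62 of 12930 tested genes rose from day 2 to day 6 in W330R-R181E. RLE scaling moved none of the 16 member counts by more than 1.5 times. The cause was not tested.

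Replicate numbers are shared between conditions, but the labels do not say what a number stands for. The deviations of same-numbered libraries on the same day correlated at 0.143 to 0.572 between genotypes on days 2 to 6 and at -0.05 in undifferentiated cells. Between days 2, 4 and 6 of 1 genotype they correlated at 0.0922 (W330R-R181E, day 2 with day 6) to 0.483 (W330R-R181E, day 2 with day 4), and at 0.47 in WT (day 2 with day 4). The averaged tests treat libraries of different days as independent, which the labels do not settle. With the replicate number as a block, W330R against WT gave 9 calls averaged over the days, and 5, 5 and 2 on days 2, 4 and 6; W330R-R181E against W330R gave 3 on day 2 and 2 on day 4.

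The direction of uncalled changes of W330R-R181E against WT turned with replicate number 2 alone for Irgm2 (-0.45), Iigp1 (-0.18), Tgtp1 (-0.76) and Gbp2 (-0.056), and without day 6 for Iigp1 (-0.53), Gbp2 (-0.060) and Gbp3 (-0.015), on the log2 scale. Over the fits without 1 library it ran from -0.41 to 0.32 for Iigp1, -0.16 to 4.26 for Tgtp2 and -0.15 to 0.43 for Gbp2. Uncalled day 6 against day 2 changes that also turned were, in W330R, Irgm1 (-0.27 to 1.12), Irgm2 (-0.040 to 1.22), Iigp1 (-0.88 to 0.72), Tgtp1 (-1.93 to 1.53) and Gbp3 (-0.41 to 2.58), and in W330R-R181E, Tgtp2 (-4.54 to 8.48). In WT the uncalled Tgtp2 change went down to 0 without turning (0 to 5.57).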
